A study of Drosophila melanogaster with 6 samples.

Results

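Odorant-binding proteins are small, secreted, soluble proteins that carry hydrophobic molecules such as odorants, pheromones and fatty acids through aqueous fluids. They were first known from the lymph that bathes olfactory neurons in the sensilla of the insect antenna, into which support cells secrete them. Many members of the Drosophila family are made in other places, among them glia, fat body, taste organs and the male reproductive tract. Their genes lie largely in clusters of tandem copies, and the proteins enter the secretory pathway through a signal peptide.

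The family was taken as every gene whose symbol in the platform's probe annotation begins with Obp and a digit, with 1 probe set for each gene, the one with the highest mean over all arrays. This gave 47 odorant-binding protein genes of 11982 genes with a probe set of their own. Of 50 probe sets that list 1 such gene, 3 were second probe sets, for Obp19a, Obp19c and Obp59a. Another 4 probe sets, which list Obp50b with Obp50c or Obp57d with a cuticle protein gene, were not used. RNA came from whole Drosophila melanogaster embryos in 2 groups, CrebA null mutant embryos and wild-type embryos, with 3 arrays each. CrebA encodes a bZIP transcription factor, and the comparison asks which transcripts depend on it. The mutants were picked on the biosorter by lacking the GFP of the balancer chromosome, and no source used here names the allele. The wild-type embryos also passed through the biosorter. All embryos were collected over 8 h and aged a further 11 h, and the labels put them at stages 11 to 15 in one field and 11 to 17 in another. These are embryos before hatching, with no antenna of the adult kind.

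The arrays gave log2 expression values, in which a difference of 1 is a doubling, and their number limits the precision. Whether the 3 replicates of a genotype are separate collections of embryos is not stated, and p-values here measure only how far these arrays spread, possibly for technical reasons. Both arrays numbered 2 stood apart, with scores of 20.1 in the mutant and 53.5 in wild type on a first principal component that held 53.5% of the variance, against -36.8 to -3.20 for the other 4 arrays. Arrays of the same replicate number varied together. Each result is therefore also given, where it changes a call, from a fit with the replicate number as a block. The pairing was clearest for number 2 (r 0.852 between deviations from the genotype means). Mutant replicate 3 correlated with wild type replicate 1 (0.566) about as much as with wild type replicate 3 (0.563). The annotation names no probe set for CrebA itself, and its level was not analysed here. Of 11 neuronal, 13 glial and 8 tracheal marker genes measured, 6, 12 and 8 lay above the foreign controls on every array.

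Most of the family gave little or no signal in these embryos. The floor was set by 17 control probe sets with sequences foreign to the fly, the highest of which read 4.71 to 4.93 on the mutant arrays and 4.81 to 5.28 on the wild-type arrays. By that measure 13 odorant-binding protein genes lay above the highest control on all 6 arrays, 16 on some arrays and 18 on none. The family's median of the mean level over the 6 arrays was 4.80, against 7.04 for all 11982 genes. A mean above that of the highest controls, 4.92, was reached by 44.7% of the family and 73.8% of all genes. Since signal also depends on the probes, levels of different genes are not ranked against each other as amounts of RNA.

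The chemosensory receptors, and the CheA and CheB genes set beside them, were dimmer still. Of 56 odorant receptor genes, which encode the odour-gated channels of olfactory neurons, 52 lay at or below the highest control on every array, as did 51 of 56 gustatory receptor genes, 41 of 53 ionotropic receptor genes and 9 of 12 CheA and CheB genes. The brightest probe sets of these lists had means of 5.29 for Or43a, 4.99 for Gr93a, 5.60 for Ir25a and 5.28 for CheA75a. Without the block no gene of these 4 lists was called in limma, with median log2 differences of -0.06, -0.06, -0.02 and 0.05 in the order named. With the replicate block 1 gustatory receptor gene fell, and 1 ionotropic receptor gene rose and 1 fell, against 12.6% risen and 9.21% fallen over all genes.

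With genotype as the only term in limma, 1 of the 47 genes rose in the mutants and 0 fell at an adjusted p under 0.05. Over all genes 1.90% rose and 1.02% fell, or 228 and 122 genes, a split that became 180 and 205 with the arrays scaled on ribosomal protein genes. At an unadjusted p under 0.05 there were 8 members, against 17.7% of all genes. The family's median log2 difference, mutant minus wild type, was 0.00, with quartiles of -0.07 and 0.15 and a range of -0.79 to 1.19, and the median of all genes was -0.02. The differences were positive in 23 genes and negative in 24. Their 95% intervals lay within 1.5-fold either way for 34 genes and within 2-fold for 40. For genes at the level of the controls such an interval describes background signal and sets no limit on the RNA itself.

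With the replicate number as a block, 9 members rose and 2 fell, against 12.6% risen and 9.21% fallen over all genes. These are 19.1% and 4.26% of the members. All 11 had the same sign in each of the 3 replicate numbers. The blocked fit favours such genes, so this adds no separate support. Among the 21 members with a mean above that of the controls, 1 rose and 0 fell without the block, against 2.43% and 1.35% of all 8843 such genes. With the block 6 of them rose and 2 fell, against 15.8% and 12.0%. Without both replicate 2 arrays the blocked fit gave 3 risen members (Obp83ef, Obp46a and Obp99c) and 1 fallen (Obp18a), against 9.97% risen and 6.03% fallen over all genes. The fit without the block and without these arrays gave 1 and 0 members, against 4.21% and 2.70%. Both fits reuse part of the same arrays, so they are no independent repeat. With few arrays left per genotype, their SEs lean on the spread of all probe sets.

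**Figure D1:**
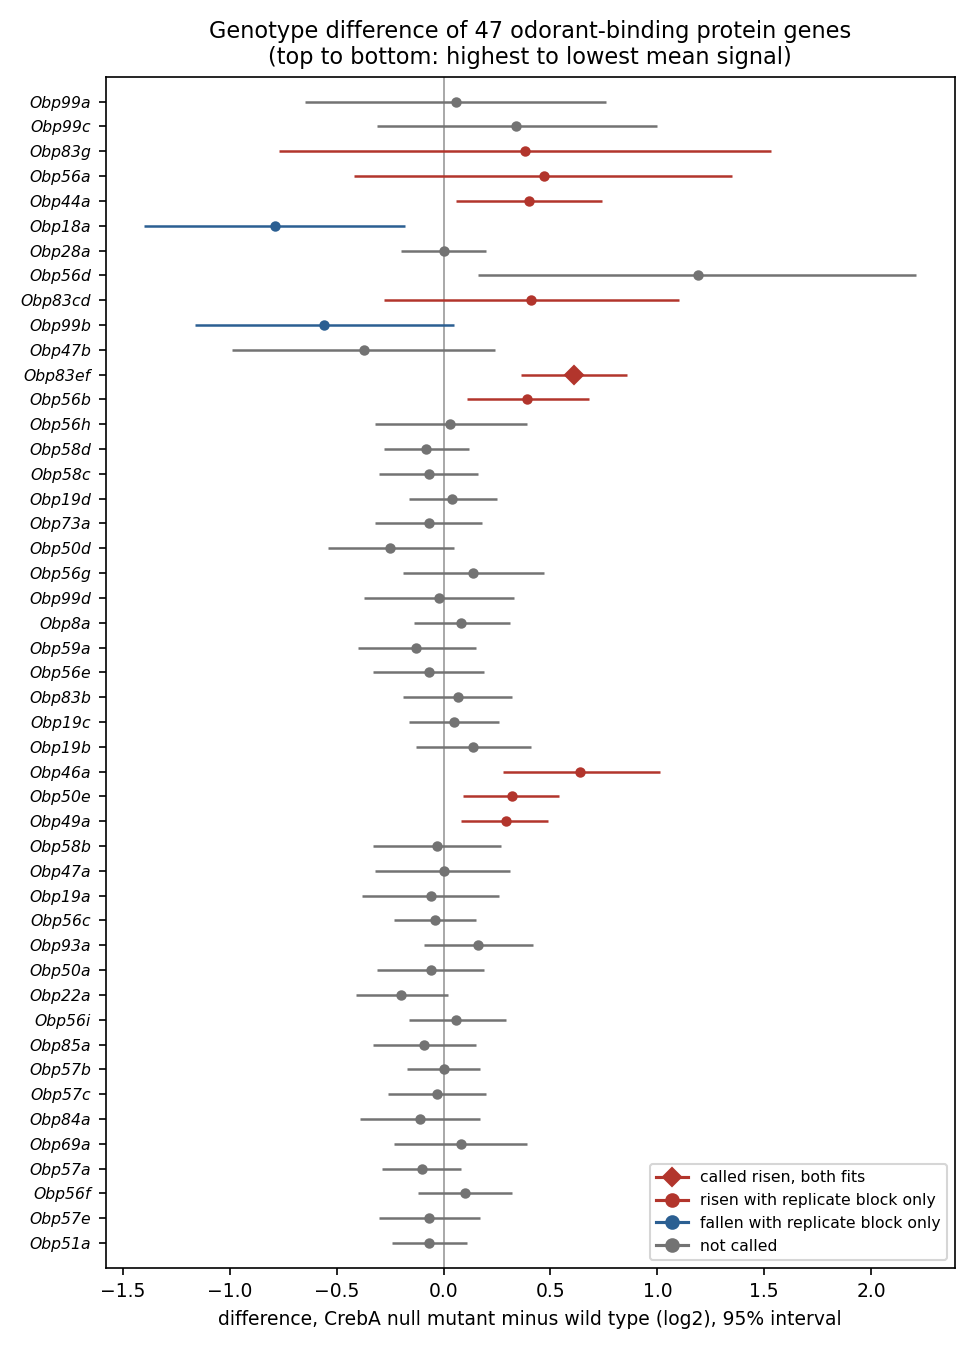
Difference between CrebA null mutant and wild-type embryos (log2) for all 47 odorant-binding protein genes, from the highest mean signal at the top to the lowest at the bottom. Points are limma estimates from 3 arrays per genotype and bars their 95% intervals with genotype as the only term, with colour for calls with the replicate block (9 risen, 2 fallen) and a diamond for Obp83ef, called in both fits.

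The gene that rose was Obp83ef, which stands next to Obp83cd and Obp83g on chromosome arm 3R in the RefSeq gene table (assembly Release 6). Obp83cd and Obp83ef each encode a protein with a pair of odorant-binding domains, and the 3 genes were above the controls on every array. Obp83ef read 6.27, 6.17 and 6.08 in the mutants, against 5.49, 5.71 and 5.48 in wild type. All mutant arrays were higher than all wild-type arrays, and both genotypes varied little. Its log2 difference was 0.61 (SE 0.10, 95% interval 0.36 to 0.86, 1.53-fold), with an adjusted p of 0.0433 in limma and 0.00703 with the block. The call without the block lay close to the threshold. It held without wild type replicate 2 (0.0458) and was lost without each other array, with adjusted p-values of 0.179, 0.107 and 0.115 without mutant replicates 1, 2 and 3 and of 0.189 and 0.126 without wild-type replicates 1 and 3. The difference itself stayed between 0.57 and 0.69 with any 1 array left out. The call was also lost with an intensity trend in the variances (0.0512), with quantile normalization (0.0978), with arrays scaled to the same median (0.0801) and with only probe sets above the controls (0.0603).

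Its neighbours shifted by similar amounts but with a much larger spread over replicates. Obp83cd read 6.82, 6.18 and 6.94 in the mutants, against 6.51, 5.75 and 6.46 in wild type. Obp83g read 11.11, 10.09 and 11.37 in the mutants, against 10.59, 9.70 and 11.14 in wild type. For both genes replicate 2 was the lowest array of each genotype, and the genotypes overlapped. The log2 difference was 0.41 (SE 0.28, adjusted p 0.660) for Obp83cd and 0.38 (SE 0.47, adjusted p 0.838) for Obp83g in limma without the block. Within replicate numbers 1, 2 and 3 the mutant exceeded wild type by 0.31, 0.44 and 0.48 for Obp83cd, and by 0.52, 0.39 and 0.23 for Obp83g. With the block both rose, with an SE of 0.08 each and adjusted p-values of 0.0170 and 0.0315. Both lost the blocked call without the replicate 2 arrays (adjusted p 0.0658 and 0.10). Their differences hardly moved in that fit, at 0.40 and 0.38. Without the block, the difference of Obp83g was -0.01 without wild type replicate 2 and 0.76 without mutant replicate 2, and that of Obp83cd was 0.16 and 0.64. Without mutant replicate 3 they were 0.12 and 0.26.

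**Figure D2:**
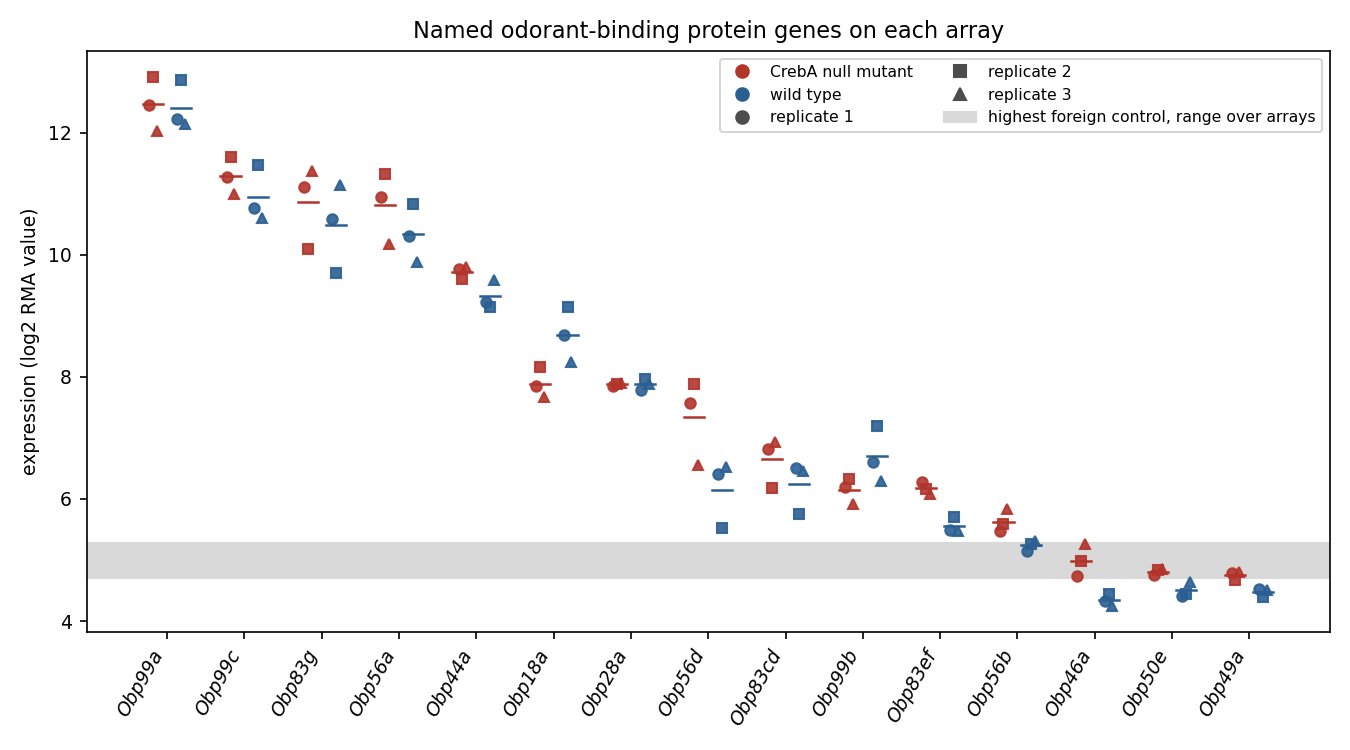
Log2 RMA value of the 15 odorant-binding protein genes named one by one, on each CrebA null mutant array (left of each pair, red) and wild-type array (right, blue), with bars at the mean of 3 arrays and marker shapes for replicate numbers. The grey band spans the highest foreign control over the arrays (4.71 to 5.28): Obp46a, Obp50e and Obp49a lie in or below it, and Obp83ef separates the genotypes by 0.61.

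The Obp99 genes, on chromosome arm 3R, gave both the brightest probe set of the family and one of its 2 falls. Obp99a read 12.45, 12.91 and 12.03 in the mutants, against 12.22, 12.87 and 12.14 in wild type. The genotypes overlapped fully, with a log2 difference of 0.06 (SE 0.29, 95% interval -0.65 to 0.76, or -0.16 to 0.28 with the block). Obp99c read 11.27, 11.61 and 10.99 in the mutants, against 10.76, 11.47 and 10.61 in wild type. Its mutant array exceeded the wild-type array of the same number each time, by 0.51, 0.14 and 0.38. It passed neither fit over all 6 arrays (difference 0.34, SE 0.27, adjusted p 0.708 and 0.0588 with the block), though the blocked fit without the replicate 2 arrays called it (0.0436). With any 1 array left out the difference lay between 0.18 and 0.60.

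Obp99b, known as turn on sex-specificity and expressed in the male fat body of the adult, went the other way. It read 6.19, 6.33 and 5.91 in the mutants, against 6.61, 7.20 and 6.29 in wild type. Mutant replicate 2 overlapped wild type replicate 3, and the mutant was lower within each number, by 0.42, 0.86 and 0.38. The log2 difference was -0.56 (SE 0.25, adjusted p 0.415), and with the block the gene fell (SE 0.11, adjusted p 0.0239). Without the replicate 2 arrays the blocked call was lost (-0.40, adjusted p 0.0516). Without wild type replicate 2 and without the block the difference was -0.31. Of 7 fat body markers measured, 1 fell and 0 rose without the block, against 1.02% and 1.90% of all genes. The blocked fit gave 2 fallen, against 9.21% of all genes. The differences of the 7 were positive in 3 and negative in 4, with a median of -0.09. The summed linear level of the 7 markers ran from 10200 to 18200 in the mutants and from 8600 to 18200 in wild type. That sum is weighted toward the brightest marker, apolpp, which was lowest in replicate 2 of each genotype (12.26 in the mutant and 11.81 in wild type). Mtp, a lipid transfer gene, was the one that fell without the block (log2 difference -1.04, SE 0.18). The part of the fat body markers in the Obp99b result was not tested, and in whole-embryo RNA fewer cells of a type and less RNA per cell cannot be told apart. Obp99d stayed near the controls, above them on 3 arrays, with a difference of -0.02.

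Obp18a, on the X chromosome, gave the most negative difference of the family. It read 7.85, 8.16 and 7.67 in the mutants, against 8.68, 9.14 and 8.24 in wild type. All mutant arrays were lower than all wild-type arrays. The log2 difference was -0.79 (SE 0.25, 1.73-fold, adjusted p 0.213 in limma), and with the block Obp18a fell (SE 0.10, 95% interval -1.03 to -0.55, adjusted p 0.00429). It was the 1 fallen member that the blocked fit also called without the replicate 2 arrays (-0.70, adjusted p 0.0156).

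Obp44a, a fatty acid carrier made by glia of the nervous system, moved in the opposite direction. It read 9.76, 9.60 and 9.80 in the mutants, against 9.22, 9.15 and 9.59 in wild type. Mutant replicate 2 lay just above wild type replicate 3, so the genotypes did not overlap, by a narrow margin. Its log2 difference of 0.40 (SE 0.14, adjusted p 0.259) passed with the block (SE 0.09, adjusted p 0.0316) and with array weights in place of it (0.0264). In the blocked fit without the replicate 2 arrays it did not pass (0.111), with a difference of 0.38. Markers of glia gave 0 risen and 2 fallen of 13 measured without the block, against 1.90% and 1.02% of all genes. The 2 were nrv2, a sodium pump subunit (-0.92, SE 0.11), and gcm, a glial fate factor (-0.89, SE 0.13). With the block 4 fell and 1 rose, against 9.21% and 12.6% of all genes. The risen one was htl, a fibroblast growth factor receptor (0.84, SE 0.22 and adjusted p 0.131 without the block, 0.0328 with it). The differences of the list were positive in 4 genes and negative in 9. The summed linear level of all 13 markers was 7460 to 8190 in the mutants and 8800 to 10200 in wild type. That sum is weighted toward the brightest markers, among them nrv2 and Gli, and does not speak for the 13 evenly. Of the 13, 0 were at or below the controls on every array. The part of the glial markers in the Obp44a result was not tested.

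**Figure D3:**
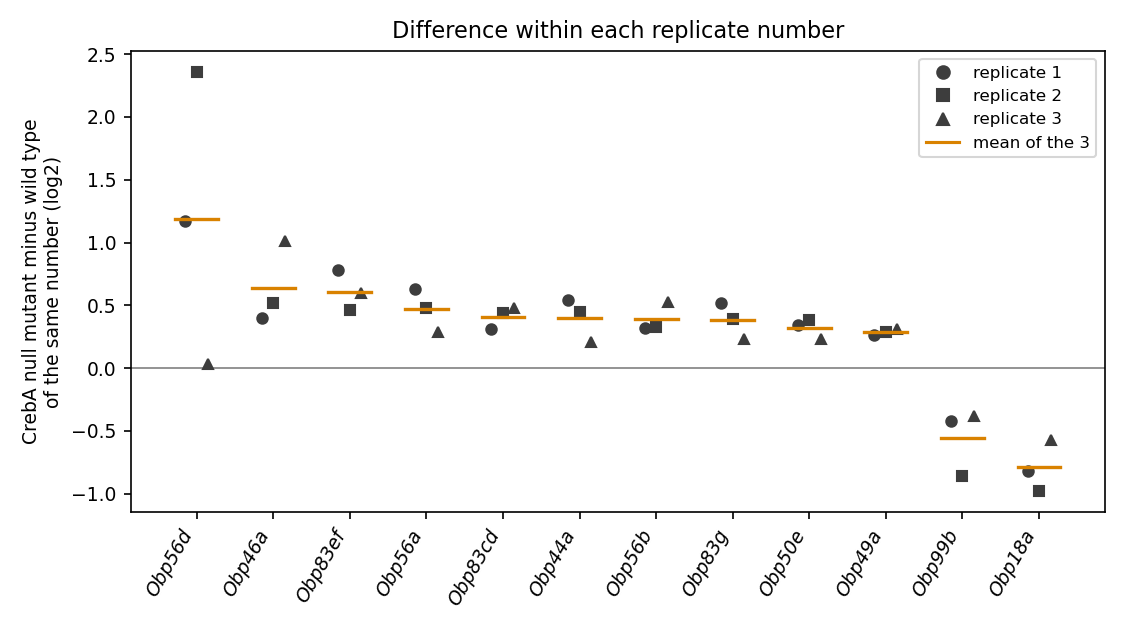
Difference between the CrebA null mutant array and the wild-type array of the same replicate number (log2) for the 11 genes called with the replicate block and for Obp56d, with bars at the mean of the 3 differences. All 11 keep 1 sign in the 3 numbers, which the blocked fit favours. Obp56d runs from 0.03 in replicate 3 to 2.36 in replicate 2.

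The Obp56 genes form the largest run of neighbours in the family, with 9 members on chromosome arm 2R, of which Obp56a and Obp56d were above the controls on every array. Obp56d, which the adult antenna and palps express widely, had the largest difference of all 47 genes and the least even one. It read 7.58, 7.88 and 6.56 in the mutants, against 6.41, 5.52 and 6.53 in wild type. Mutants 1 and 2 were clearly higher, while the replicate 3 arrays were nearly equal. The log2 difference was 1.19 (SE 0.42, 95% interval 0.16 to 2.21) and passed neither fit (adjusted p 0.271, and 0.108 with the block). Within the replicate numbers it was 1.17, 2.36 and 0.03, and without both replicate 2 arrays it was 0.60.

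Obp56a read 10.94, 11.32 and 10.17 in the mutants, against 10.31, 10.84 and 9.88 in wild type. The ranges overlapped, and replicate 2 was the highest and replicate 3 the lowest array of each genotype. The mutant was higher within each number, by 0.63, 0.48 and 0.29, for a log2 difference of 0.47 (SE 0.36, adjusted p 0.707). With the block Obp56a rose (SE 0.09, adjusted p 0.0189), but not in the blocked fit without the replicate 2 arrays (0.46, adjusted p 0.0661). Without the block the difference was 0.21 without mutant replicate 2, 0.23 without wild type replicate 3, 0.72 without wild type replicate 2 and 0.79 without mutant replicate 3.

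Obp56b was dimmer, at 5.47, 5.59 and 5.84 in the mutants, against 5.15, 5.26 and 5.31 in wild type. Its genotypes did not overlap, although wild type replicate 2 lay within the controls. The log2 difference was 0.39 (SE 0.12, adjusted p 0.187), and it rose with the block (adjusted p 0.0231). Without the replicate 2 arrays the blocked fit gave 0.42 (adjusted p 0.0589). The other 6 genes of this run had differences of -0.07 to 0.14 and means of 3.47 to 5.36. Among them is Obp56h, which affects pheromone-related mating behaviour in males, at a mean of 5.36 and a difference of 0.03 (SE 0.15).

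The remaining genes that passed with the block belong to the Plus-C class, whose proteins carry additional conserved cysteines. Obp46a read 4.73, 4.98 and 5.26 in the mutants, against 4.33, 4.45 and 4.25 in wild type. Its genotypes did not overlap, but all wild-type arrays lay below the highest control of their array and 2 of 3 mutant arrays above it. The mutant mean of 4.99 is below the mean of the highest controls on the wild-type arrays, 5.02, so no fold is given. The difference of the deposited values was 0.64 (SE 0.15, adjusted p 0.10, and 0.0220 with the block), and the blocked fit without the replicate 2 arrays also called it (0.0479).

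Obp50e read 4.75, 4.83 and 4.86 in the mutants, against 4.41, 4.45 and 4.64 in wild type. Obp49a, with which taste cells dampen the response to sugar when a bitter compound is present, read 4.79, 4.68 and 4.81 in the mutants, against 4.53, 4.39 and 4.50 in wild type. Both sat at the level of the controls, above them on 1 of 3 mutant arrays and on 0 wild-type arrays. The values of the 2 genotypes did not overlap for either gene. Their differences of 0.32 (adjusted p 0.180) and 0.29 (adjusted p 0.176) passed with the block (0.0378 and 0.0419). In the blocked fit without replicate 2 they were 0.28 and 0.29 and did not pass (0.140 and 0.129).

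Of the 11 Plus-C genes measured, 0 were called in limma without the block and 3 rose with it, against 12.6% of all genes, with a median difference of -0.06. The class was added after the values were seen, and the 3 are the dim genes just described. At 5.95, 5.51 and 6.46 in the mutants, against 6.29, 6.18 and 6.57 in wild type, Obp47b was the brightest of them. Its difference was -0.37 (SE 0.25, adjusted p 0.647, and 0.0889 with the block).

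Obp28a held the steadiest level of the bright genes. This gene encodes one of the most abundant proteins of the adult antenna, where it acts on the response to sudden changes of odour. It read 7.85, 7.89 and 7.90 in the mutants, against 7.79, 7.96 and 7.89 in wild type. All 6 arrays, including both numbered 2, lay between 7.79 and 7.96, and the log2 difference was 0.00 (SE 0.08, 95% interval -0.20 to 0.20).

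**Figure D4:**
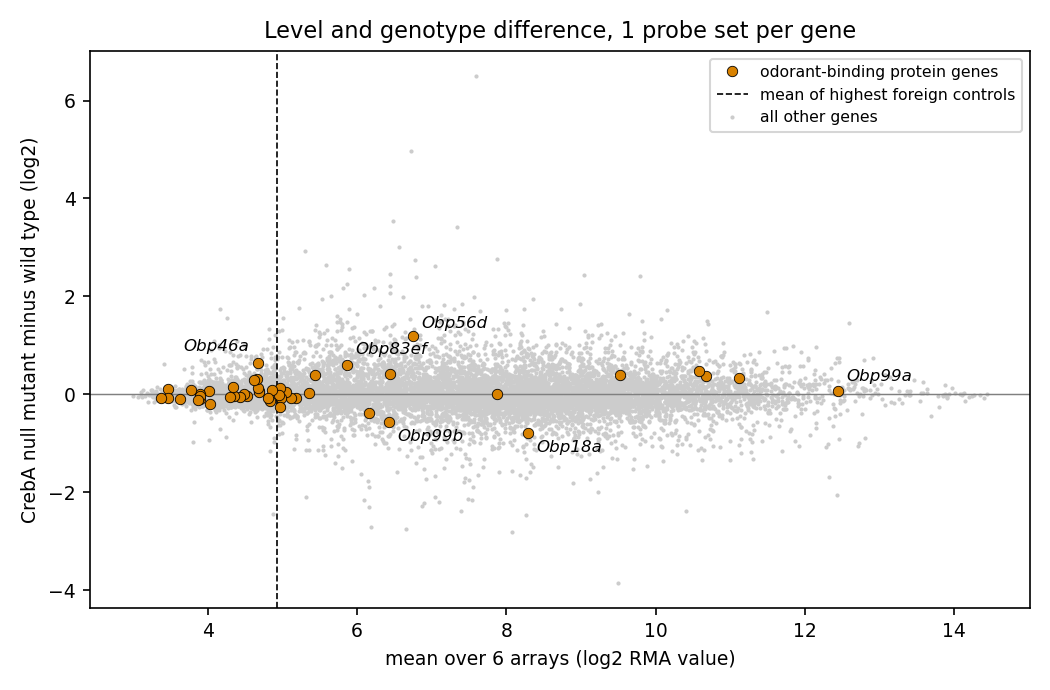
Genotype difference (CrebA null mutant minus wild type, log2) against the mean over 6 arrays for 1 probe set per gene, with the 47 odorant-binding protein genes in orange and the other genes in grey. The dashed line marks the mean of the highest foreign controls (4.92), to the left of which 26 of the 47 genes lie, and the family spans -0.79 to 1.19.

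The other antennal carriers, Obp83b, Obp69a, Obp84a and Obp19d, were at or near the level of the controls, with means of 3.78 to 5.05. Their differences ran from -0.11 to 0.08, with adjusted p-values of 0.797 to 0.906. The gene lush, which encodes the odorant-binding protein for the male pheromone cis-vaccenyl acetate but whose symbol falls outside the rule, was picked after its values were seen. It read 4.01, 3.94 and 3.85 in the mutants, against 4.26, 4.23 and 4.26 in wild type, all below the controls. Its difference of -0.32 did not pass without the block (adjusted p 0.122) and passed with it (0.0382), so it is the 1 fallen gene among the olfactory partners counted further on.

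Genes known from the seminal fluid of adult males (Obp8a, Obp22a, Obp51a, Obp56e, Obp56f, Obp56g and Obp56i) were dim too, with means of 3.37 to 4.96, differences of -0.20 to 0.14 and no call in either fit. The mutant values of Obp22a, Obp51a and Obp57a lay below all wild-type values by small amounts, although no array of these genes rose above the controls. Groups without overlap occurred in 7 members with the mutant higher and 4 with it lower, against 10.9% and 10.2% of all genes. For members with a mean above that of the controls these counts were 4 and 1, against 12.2% and 10.5%.

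Apart from the Obp19, Obp57, Obp58 and Obp59a genes taken up below, the members not described so far were dim as well. Obp73a was above the controls on 5 arrays, with a mean of 4.98 and a difference of -0.07. Obp50d was above them on 3 arrays, with 4.96 and -0.25. Obp47a, Obp50a, Obp85a and Obp93a exceeded them on 0 arrays, and their differences lay between -0.09 and 0.16. No call was made for these genes in either fit.

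Position in the genome gave a further view of the family. All 47 genes were matched by gene ID in the RefSeq table, 26 of them on chromosome arm 2R, 11 on 3R, 6 on X and 2 each on 2L and 3L. With at most 3 other protein-coding genes allowed between neighbours, a limit chosen after the values were seen, 29 genes fell into 7 runs and 18 stood alone. The run of Obp83cd, Obp83ef and Obp83g was above the controls throughout and had 3 positive differences of 0.38 to 0.61. The run of Obp56 genes had 7 positive and 2 negative differences. Mixed signs were seen in the run of Obp99c, Obp99d and Obp99b, also on 3R (-0.56 to 0.34, 1 positive). The same held for Obp50a, Obp50d and Obp50e (-0.25 to 0.32, 1 positive). The 4 Obp19 genes on the X chromosome had means of 4.43 to 5.05 and differences of -0.06 to 0.14. Of the 4 Obp57 genes measured, Obp57a, Obp57b and Obp57c form a run and Obp57e stands alone. The 4 genes had means of 3.46 to 3.90, and 0 of them exceeded the controls on any array. Among them, Obp57e shapes the choice of host plant in the sister species Drosophila sechellia. Unused probe sets that list Obp57d with a cuticle protein gene had means of 6.25 and 4.03. Their differences were 0.29 (adjusted p 0.669 in limma, 0.0412 with the block) and 0.06, and cannot be assigned to either gene. The 3 Obp58 genes and Obp59a, a gene needed for sensing humidity, had means of 4.53 to 5.18 and differences of -0.13 to -0.03. Neighbours may share sequence, and the 3 genes of the Obp83 run share a family origin, so they are not independent measures.

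Where a gene had a second probe set, the 2 gave different levels and no call in either fit. The second probe set of Obp59a had a mean of 3.40, against 4.83 for the first, and those of Obp19a and Obp19c had means of 3.92 and 4.40, against 4.43 and 4.68.

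Replicates of a genotype differed more than the genotypes did for several of the brightest genes. In the mutants and in wild type alike, replicate 2 was above the mean of replicates 1 and 3 for Obp99a (by 0.67 in mutants and 0.69 in wild type), Obp56a (0.77 and 0.75), Obp99c (0.48 and 0.78) and Obp18a (0.40 and 0.68). It was below that mean for Obp83g (-1.15 in mutants and -1.16 in wild type) and Obp83cd (-0.70 and -0.74). Obp28a hardly moved (0.02 and 0.13), and Obp56d moved in opposite directions (0.81 in mutants and -0.95 in wild type). Of the 21 members with a mean above that of the controls, 18 shifted in the same direction in both genotypes, as did 7418 of all 8843 genes with such a mean. Over all levels this held for 34 of 47 members and 9492 of 11982 genes. Shifts beyond 0.3 in both genotypes, a limit set after the values were seen, were upward in 4 members and 2004 of all genes and downward in 2 members and 1804 of all genes.

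**Figure D5:**
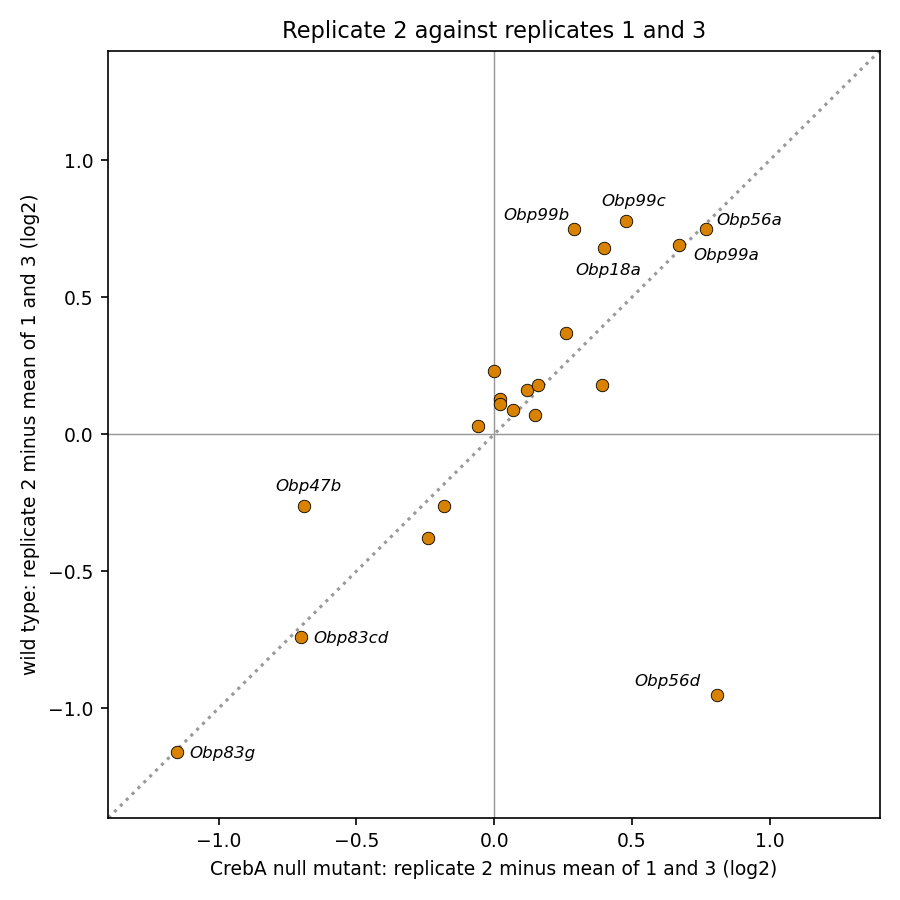
Replicate 2 minus the mean of replicates 1 and 3 (log2) in CrebA null mutant embryos (horizontal) and wild-type embryos (vertical), for the 21 odorant-binding protein genes with a mean above that of the highest foreign controls. The dotted line marks equal shifts: Obp83g and Obp83cd are low and Obp99a and Obp56a high in replicate 2 of both genotypes, and Obp56d is high in the mutant (0.81) and low in wild type (-0.95).

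Other genes of chemosensation and of the tissues that express the family were set beside these values. The list named olfactory partners here holds 16 measured genes and is mixed, with genes not particular to olfaction such as Rbp9 and upd1. In it 0 were called without the block, with a median difference of 0.06. The blocked fit called 3 risen (Phk-3, EbpIII and Rbp9) and 1 fallen, against 12.6% risen and 9.21% fallen over all genes. The brightest was Phk-3, which encodes a small soluble protein of the chemosensory protein family. It read 12.52, 11.93 and 12.77 in the mutants, against 11.77, 10.98 and 12.25 in wild type. Replicate 2 was its lowest array in both genotypes, and the difference of 0.74 (SE 0.37, adjusted p 0.479) passed with the block (0.00581).

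External sense organs were represented by 13 genes, of which 0 were called without the block and 4 fell with it. For this and the following lists, the shares over all genes were 1.90% risen and 1.02% fallen without the block. They were 12.6% and 9.21% with it. Their median difference was -0.18, and the brightest, the cell fate factor pros, had -0.04. Of the 11 neuronal genes 0 were called without the block, while 3 rose with it. Their median difference was 0.24, and the brightest, the RNA-binding protein gene fne, had -0.09. Of 9 haemocyte, 9 salivary gland and 8 tracheal genes 0 were called without the block, with medians of -0.04, -0.28 and -0.09. With the block 1 haemocyte gene rose, and 5 salivary gland genes and 1 tracheal gene fell. The tracheal gene is rib, which is also 1 of the 5 salivary gland genes, so it is counted in both lists. The 66 cuticle protein genes of the Cpr family, also small secreted proteins, gave 4 risen and 1 fallen (median 0.01), or 14 and 9 with the block.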

How the data were processed

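Total RNA of 3 CrebA null mutant and 3 wild-type samples was hybridised to Affymetrix Drosophila Genome 2.0 arrays. The deposited values are RMA expression values, taken as log2 from their range (2.81 to 14.53) because no source used here states the base. The authors used RMA and Partek, per the submitters' processing notes, with no version or order. Of 18952 probe sets, 183 Affymetrix controls were left out of the tests, among them 17 Tag controls foreign to the fly, and all 6 sample columns were used. Names came from the platform annotation.

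The 2 genotypes entered a linear model in limma 3.58.1 (lmFit, eBayes, R 4.3.3). Two-sided p-values of 18769 probe sets were adjusted together by Benjamini-Hochberg, and a gene was called at an adjusted p under 0.05. No further normalization or filter was applied. Deviations from the genotype means correlated between arrays of the same replicate number in the titles (r 0.639, 0.852 and 0.563 for numbers 1, 2 and 3), which is the basis for the fit with a replicate block. The labels do not tie a number to 1 collection, and replicates 1 and 3 also correlated crosswise (0.566 and 0.371).

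The genes named are members called in either fit, the 8 members with the highest mean, and for some other lists called members or the brightest one. The haemocyte and Cpr lists, the latter with called genes, are given by counts and medians alone. Further genes are named where they bear on a count, a sum or the background. Members and lists were chosen with earlier results of these data known, and classes and neighbour runs were added after the values were seen. Plots were made in python 3.11.15 (matplotlib 3.10.9). Filters, scalings, variance models, probe set choices and left-out arrays were tried as alternatives.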

Additional observations from a re-analysis of the deposited data

How the results depend on the processing

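With the replicate number as a block, 9 members rose and 2 fell and 1504 and 1103 of all genes did, against 1 and 0 members and 228 and 122 genes without it. Array weights gave 5 and 2 members (1137 and 848 genes). The risen members were 0 with an intensity trend, quantile normalization, scaling to the same median and only probe sets above the controls. Scaling on ribosomal protein genes gave 205 fallen genes, and a threshold of 0.1 gave 460 risen and 277 fallen genes. Leaving out both replicate 2 arrays gave 504 and 324 genes, and with the block, an alternative chosen after seeing the data, 3 and 1 members (1195 and 722 genes). The block on only probe sets above the controls, also chosen later, gave 6 and 2 members (1394 and 1053 genes). Without 1 array the counts ran from 0 to 1 risen members, 16 to 136 risen genes and 11 to 82 fallen genes, with 0 fallen members each time. The family's median difference of 0.00 lay between -0.03 and 0.04 without 1 array, and was -0.06 and -0.04 with the median and ribosomal scalings, which moved the median of all genes to -0.08 and -0.07, and 0.04 with only the brighter probe sets, with or without the block. Of 264 values of the 15 named genes under alternatives, 225 kept direction and side of the threshold, 25 gained a call, 9 lost one (all Obp83ef) and 5 changed sign, none of them called. Those were Obp99a without mutant replicate 2 (-0.17), without wild-type replicates 1 (-0.04) and 3 (-0.08) and with the median scaling (-0.01), and Obp83g without wild type replicate 2 (-0.01). Leaving out 1 array moved Obp99a from -0.17 up to 0.29 and Obp83g from -0.01 up to 0.76, the upper values without wild type replicate 2 and without mutant replicate 2. With both replicate 2 arrays left out, the difference was 0.06 for Obp99a and 0.38 for Obp83g, the same as over all 6 arrays. The cause of the shifts with 1 array left out was not tested. Signal at the level of the foreign controls limits what can be said of 34 members that did not exceed them on every array.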
